A study of Mus musculus with 10 samples.

Results

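The response of wild-type dendritic cells to LPS was followed on 3 of the 10 arrays of the series, 2 from stimulated cultures and 1 from an unstimulated culture. The arrays were chosen by their labels alone, and genes were then compared over every gene above background, 7474 of the 12393 genes on the arrays. The cells were grown from bone marrow of C57BL/6 mice aged 6 to 8 weeks. Marrow was kept for 7 to 10 days in medium with supernatant of B16 tumour cells transduced to secrete GM-CSF, and cultures were used once over 90% of the cells carried CD11c. The LPS group received smooth LPS at 1 µg/ml and was harvested at 48 h (1 array) or at 60 h (1 array). The unstimulated group (1 array), called 0 h in the design, was plated without LPS and harvested after 24 h, so LPS and the longer time in culture cannot be told apart. All 3 cultures had been grown with the GM-CSF supernatant, but the labels do not say whether the plates still held it. Nor do they give the number of mice behind each culture. The other 7 arrays, which hold CD14-deficient cells and cells given LPS with thapsigargin, helped to set the scaling target, the floor, the probe set of each gene and the filter, so also which genes were tested. They entered the fit too, for the estimate of the spread and 1 test between genotypes. The series was designed to find apoptosis genes controlled by the transcription factor NFAT.

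LPS, the outer membrane lipid of Gram-negative bacteria, is bound by CD14 and MD-2 (encoded by Ly96) and signals through TLR4. One arm runs through the adaptor MyD88 to NF-kB and AP-1 and switches on cytokine and chemokine genes. The other runs through TRIF to IRF3, and the type I interferon made through it switches on antiviral genes in the same culture. A stimulated dendritic cell is known to stop taking up antigen, to display costimulatory ligands and to stop dividing, while GM-CSF marrow cultures hold macrophage-like cells beside dendritic cells. The arrays were read long after the first hours of the response, so the values describe a late state.

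Array quality differed between the cultures. The RNA integrity number was 9.4 at 48 h and 8.6 at 60 h of LPS, against 9.6 in unstimulated cells, and the cRNA yield was 31.2 and 19 µg, against 53.1 µg. The 3′ control probe set for 18S rRNA read 2781 and 396 under LPS, against 7886 without it. The ratio of the 3′ to the 5′ probe set of Actb was 1.12 and 1.62, against 1.02. The 60 h array thus had the lowest integrity number, yield and 18S signal and the highest Actb ratio of the 3, and their part in the results was not tested. The 2% trimmed mean signal was 511.4 and 510.9, against 538.1, and every array was scaled to 509.1. Values below are these scaled signals, in arbitrary units that compare arrays for 1 probe set but not 1 gene with another. Signals under 13.4 were treated as that floor.

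The labelled cell type was borne out in part by its markers. Cd74, the chaperone of MHC class II, was far above background on every array, at 12590 and 10920 under LPS, against 13560 without it. Itgax, which encodes CD11c, read 2921 and 1002 under LPS, against 7440, a difference that did not pass the test (adjusted p = 0.277). Flt3, the receptor of a dendritic cell growth factor, was near background at 84.7 and 65.8, against 114, and Xcr1, a marker of cross-presenting cells, was under the floor on the 3 arrays. Macrophage genes were far above background too, among them Lyz2 at 13210 and 12770 under LPS, against 12780. A list of 14 dendritic cell markers on the arrays, which does not hold both Cd74 and Itgax, summed to 18130 and 16320 under LPS, against 19530. The list of 14 macrophage markers summed to 66650 and 58370, against 71400. Of the 10 members of the dendritic cell list above background, Irf8, a transcription factor of the lineage, rose (3.86-fold) and Kmo, an enzyme of tryptophan breakdown, fell (5.75-fold). At both times 4 of the 10 were 2-fold lower and 1 was 2-fold higher, where 9.74% and 8.13% of all genes tested were. In bulk RNA, fewer cells of a type and less RNA per cell cannot be told apart.

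Markers of other cells were mostly dim. Of 12 neutrophil markers, 5 were above background, of which 1 rose and 3 fell (median log2 change -1.89). Those that fell include S100a8 and S100a9, both far above background without LPS, whose values are given below. The 12 summed to 10500 and 12390 under LPS, against 9264. Lcn2, which the acute phase list holds too, made up 8424 and 10460 of these sums, against 257. The primary granule genes Mpo and Elane were below the filter on low values. The summed signal of the T and NK cell list was 151 and 136 under LPS, against 214, with Gzmb, Ncr1 and Nkg7 under the floor on the 3 arrays. That of the B cell list was 312 and 720, against 372. The melanoma list, included because the growth supernatant came from B16 cells, summed to 735 and 1275, against 1944, and Mitf was its sole member above background. The stromal list summed to 1471 and 3383, against 1816, and 2 of its 4 members above background rose and 1 fell (log2 change -2.42). Within it Dcn and Lum, matrix proteoglycans of fibroblasts, rose at least 118-fold and at least 10.3-fold, while Col1a1, the defining collagen gene, and Cxcl12 were under the floor on the 3 arrays. The part of such cells in the results was not tested.

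LPS raised 575 of the 7474 genes (7.69%) and lowered 616 (8.24%). A gene is called raised or lowered here when limma's moderated test gave a Benjamini-Hochberg adjusted p under 0.05 and the change had 1 sign at both times. Without any test, 608 genes (8.13%) were at least 2-fold higher at both times and 728 (9.74%) were at least 2-fold lower. Among the called genes 453 rose and 496 fell at least 2-fold at both times, 102 rose at least 8-fold and 119 fell at least 8-fold. The median log2 change over all genes was -0.03, and 1 gene, Dusp6, was 2-fold lower at one time and 2-fold higher at the other. Of the 7474 genes, 2980 were higher and 3145 were lower at both times by any amount. Since both times were set against the same unstimulated array, agreement between them is partly built in.

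No condition was repeated, so the spread behind the p-values is the departure of the 8 stimulated arrays, as 4 pairs of 48 and 60 h, from a common shift between these times. The 2 unstimulated arrays add nothing to it and are assumed to vary like the others. The counts moved with each stimulated array. They were 100 raised and 70 lowered without the 48 h array and 117 and 117 without the 60 h array, of which 100 and 70, and 117 and 114, were among the calls above. They were between 193 and 201 raised and between 195 and 203 lowered without any single array of LPS with thapsigargin, and 1565 and 1705, or 1571 and 1709, when LPS-treated CD14-deficient cells of 48 h or of 60 h were left out.

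**Figure D1:**
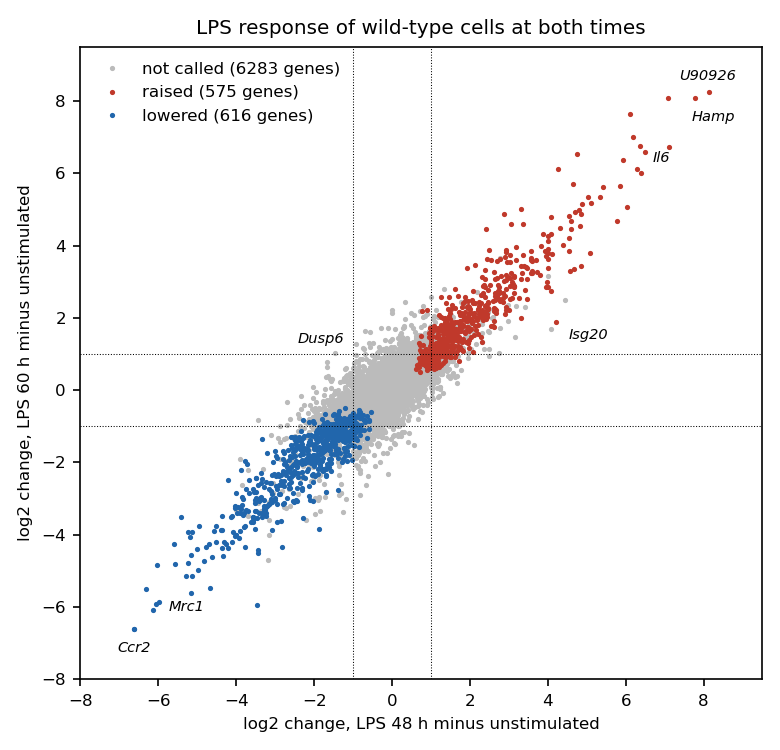
Each point is 1 of 7474 genes, with the log2 change at 48 h of LPS over unstimulated cells on the x axis and at 60 h on the y axis; dotted lines mark 2-fold changes. The 575 raised genes (red) lie at the upper right and the 616 lowered genes (blue) at the lower left, with Dusp6 alone 2-fold apart in opposite directions.

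The 15 largest rises joined inflammatory mediators with genes of other kinds. U90926, a transcript of unsettled function, read 10140 and 11000 under LPS, against 36.1 without it, a 292-fold rise (log2 8.19 ± 0.28, adjusted p = 0.000401). Vnn3, a member of the pantetheinase family, read 2291 and 1762, against 16.5 (122-fold, adjusted p = 0.00686). Gja1, which encodes the gap junction protein connexin 43, read 361 and 1236, against 11.8, under the floor, and was at least 49.9-fold higher. Tm4sf1, a surface protein of the tetraspanin-like kind, rose 73.3-fold and Mucl1, a mucin-like gene, rose 46.9-fold.

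Surface receptors and proliferation genes made up most of the 15 largest falls. Ccr2, the receptor that draws monocytes towards Ccl2, read 10.9 and 10.8 under LPS, both under the floor, against 1322 without it, and was at least 98.6-fold lower (adjusted p = 0.00109). S100a9, a calcium-binding alarmin, read 34.2 and 35.5, against 2410, and its partner S100a8 read 1698 and 1514, against 5953. Both fell, S100a9 69.1-fold (log2 -6.11 ± 1.14, adjusted p = 0.0228) and S100a8 3.71-fold. Ltb, which encodes lymphotoxin beta, fell 43.4-fold, Asgr2, a lectin of the asialoglycoprotein receptor, 60.1-fold, and Rgs18, a regulator of G protein signalling, 30.6-fold, the last 2 with 1 LPS array at the floor. S100a8 and S100a9 stand on the neutrophil list, whose summed signal is given above. The adhesion gene Cdh1, which encodes E-cadherin, read 82.2 and 47.8, against 2114, a 33.7-fold fall. Rab3il1, an exchange factor for Rab GTPases, was at the floor on both LPS arrays and at least 31.5-fold lower.

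**Figure D2:**
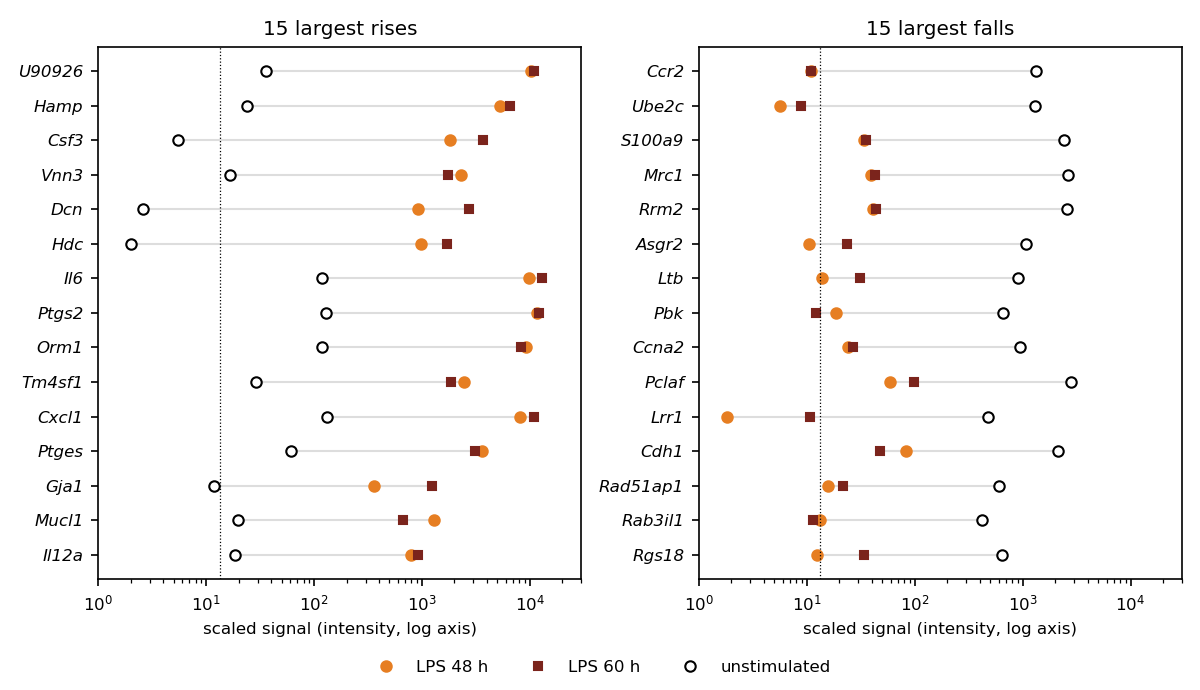
Scaled signal on a log axis for the 15 largest rises (left) and the 15 largest falls (right) among called genes that were 2-fold apart at both times; filled orange circles are LPS 48 h, brown squares LPS 60 h, open circles unstimulated cells, and the dotted line is the floor of 13.4. The choice of genes put both LPS arrays on 1 side of the unstimulated array, and the plot shows how far apart they lie, from Ccr2 with both LPS arrays under the floor to U90926 at 10140 and 11000 under LPS, against 36.1.

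Of 16 secreted cytokines tested, 11 rose and 0 fell, with a median log2 change of 2.87, against -0.03 over all genes. At both times 10 were 2-fold higher, where 8.13% of all genes tested were. With no filter 6 of 19 rose, and 6 or 5 of the 16 rose without the 48 h or the 60 h array. Il6, a cytokine of fever and of B cell and acute phase responses, read 9791 and 13010 under LPS, against 119 without it (94.6-fold, log2 6.56 ± 0.42, adjusted p = 0.00161). Il1b, the secreted interleukin 1, read 11380 and 12190, against 473, and Il1a read 10180 and 11020, against 633. They rose 24.9-fold and 16.7-fold. The p35 and p40 subunits of interleukin 12, which drives Th1 cells, rose together, Il12a 46.0-fold and Il12b 20.9-fold. Il10, an inhibitor of inflammation, read 133 and 435, against 7.44, under the floor, and was at least 17.9-fold higher. The 5 members that did not pass included Tnf, at 937 and 1721, against 788, and Tgfb1, at 2141 and 2056, against 2148.

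Growth factors changed unevenly, with 4 of 11 raised, 1 lowered and a median of 0.60. Csf3, the granulocyte growth factor, read 1837 and 3656 under LPS, against 5.52, under the floor, and was at least 193-fold higher (adjusted p = 0.000401). Vegfa, a factor of blood vessel growth, read 2661 and 2539, against 207 (12.6-fold), and Igfbp4, which binds insulin-like growth factors, rose 17.7-fold. Pdgfa, a platelet-derived growth factor chain, fell 2.41-fold. Csf1, the macrophage growth factor, read 301 and 556, against 1147, and did not pass.

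The kB element, the DNA sequence that NF-kB binds, was searched in the window from 250 bases before to 50 after each start site in RefSeq (GRCm38.p6), as GGGA, any base, then TTTCC or TTCCC, on both strands. Of 16 cytokine genes with a promoter in that table, 1 held a match (6.25%), against 0.873% of all 27025 genes. So did 5 of 10 genes of NF-kB subunits and inhibitors (50.0%) and 3 of 9 CXC chemokine genes (33.3%). Over all raised genes it was found in 10 of 443 (2.26%), and over lowered genes in 8 of 494 (1.62%). The share was 1.27% of the tested genes with a promoter in the table. Il6 was the cytokine gene with a match, and its promoter at chr5:30012864-30013163 (plus strand) is shown with the match, which starts at position -44 from the start site, in capitals.
Il6: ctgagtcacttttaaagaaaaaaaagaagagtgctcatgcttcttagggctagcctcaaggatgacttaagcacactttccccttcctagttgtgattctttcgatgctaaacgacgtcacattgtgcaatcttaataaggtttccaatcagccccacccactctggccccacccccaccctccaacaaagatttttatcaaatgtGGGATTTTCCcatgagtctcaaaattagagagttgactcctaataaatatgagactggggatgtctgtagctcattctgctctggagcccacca

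Of 9 CXC chemokines tested, 5 rose and 0 fell (median 2.39). With no filter 5 of 12 rose and the median was 1.10. Cxcl1, a neutrophil attractant, read 8108 and 10900 under LPS, against 133 (70.9-fold, log2 6.15 ± 0.34, adjusted p = 0.00109). Its relative Cxcl2 read 14430 and 14410, against 2158 (6.68-fold). Cxcl9, an interferon-induced attractant of T cells, and Cxcl5, another neutrophil attractant, were under the floor without LPS and at least 17.6-fold and 13.0-fold higher. Cxcl10, which shares its receptor with Cxcl9, read 509 and 497, against 249, and did not pass (adjusted p = 0.0514).

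Of 13 CC chemokines, 3 rose, 2 fell and 8 did not pass, with a median of 0.08. Ccl8, an attractant of monocytes and other leukocytes, read 458 and 283, against 19.7 (18.2-fold). Ccl24, an eosinophil attractant, was at least 10.7-fold higher, and Ccl5, which draws T cells, rose 2.91-fold. Ccl17, a T cell attractant made by dendritic cells, read 4127 and 6404, against 11050 (2.15-fold lower), and Ccl12 fell 7.5-fold. Ccl22, which shares the receptor of Ccl17, read 10140 and 12210, against 10550, and did not pass. Ccl9 read 15130 and 12870, against 14410, and did not pass either.

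Among 7 chemokine receptors above background, 2 rose and Ccr2 fell. Cxcr4, the receptor of Cxcl12, read 4222 and 5289, against 996 (4.74-fold), and Ccrl2, an atypical receptor that presents chemerin, rose 15.4-fold. Ccr7, the receptor that guides dendritic cells to lymph nodes, read 3531 and 6408, against 3414, and did not pass (adjusted p = 0.602). Of 13 genes of migratory dendritic cells, 2 rose and 1 fell, where 7.69% and 8.24% of all genes tested did. Cd200, an inhibitory surface ligand, rose 5-fold and Il15ra, which presents interleukin 15, 3.41-fold, while Fscn1, an actin-bundling protein, read 8312 and 9727, against 9721.

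Of 11 eicosanoid enzymes, 3 rose, 2 fell and 6 did not pass (median 0.54). Ptgs2, the inducible cyclooxygenase, read 11570 and 12240 under LPS, against 128 (93.1-fold, log2 6.54 ± 0.19, adjusted p = 0.000315). Ptges, the synthase that completes prostaglandin E2, read 3582 and 3096, against 61.6 (54.0-fold). The other that rose was the leukotriene C4 synthase Ltc4s (2.74-fold). Those that fell were Hpgds, the synthase of prostaglandin D2 (6.01-fold), and Lta4h, which makes leukotriene B4 (2.16-fold). Tbxas1, the thromboxane synthase, read 196 and 135, against 1291, and did not pass. Of 6 receptors of these lipids, 2 fell. Ptger3, a prostaglandin E2 receptor, fell 11.7-fold with 1 LPS array at the floor, and Cysltr1, a leukotriene receptor, fell 10.2-fold. The prostaglandin E2 receptor gene Ptger4 read 3919 and 3225, against 2230, and did not pass.

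Of 14 immunometabolic genes, mostly enzymes that act on amino acids and amines, 8 rose and 2 fell (median 2.07), and 3 rose with no filter or without either LPS array. Hdc, which makes histamine, read 969.7 and 1716 under LPS, against 2.01, under the floor, and was at least 96.3-fold higher. It also stands on the list of mast cell genes, whose summed signal, Hdc included, was 1571 and 2506, against 855, while Ms4a2, the receptor chain that defines those cells, was under the floor on the 3 arrays. Both arginases rose, Arg1 9.17-fold and Arg2 15.0-fold, with the arginine carrier Slc7a2 (9.63-fold). Ido1, which breaks down tryptophan, read 188 and 480.3, against 43.2 (6.95-fold). Nos2, the inducible nitric oxide synthase, read 291 and 75.5, against 5.5, a wide gap between the LPS arrays, and did not pass (adjusted p = 0.155). Ch25h, which makes 25-hydroxycholesterol, read 84.0 and 118, against 966 (9.7-fold lower).

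Of 10 acute phase genes tested, 8 rose and 0 fell, with a median of 4.22. The filter had left out 7 of the 17 on the arrays, and genes induced by LPS could pass it through the LPS arrays. With no filter 8 of 17 rose and the median was 1.60, below those of the immunometabolic list (1.98) and the cytokines (1.91). Without the 48 h or the 60 h array, 5 or 7 of the 10 rose. These genes are best known from liver. Hamp, which encodes the iron hormone hepcidin, read 5334 and 6592, against 24.1 (246-fold, adjusted p = 0.00102). Saa3, a serum amyloid gene, read 10910 and 11200, against 379.8 (29.1-fold). Lcn2, which binds bacterial iron carriers, rose 36.5-fold, and the orosomucoid genes Orm1 and Orm2 rose 73.8-fold and at least 35.5-fold. Ptx3, a soluble pattern receptor, read 507 and 835, against 1670, and did not pass. Hamp was the sole gene called among 11 of iron handling, where the ferritin heavy chain Fth1 read 18670 and 17740, against 15780.

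**Figure D3:**
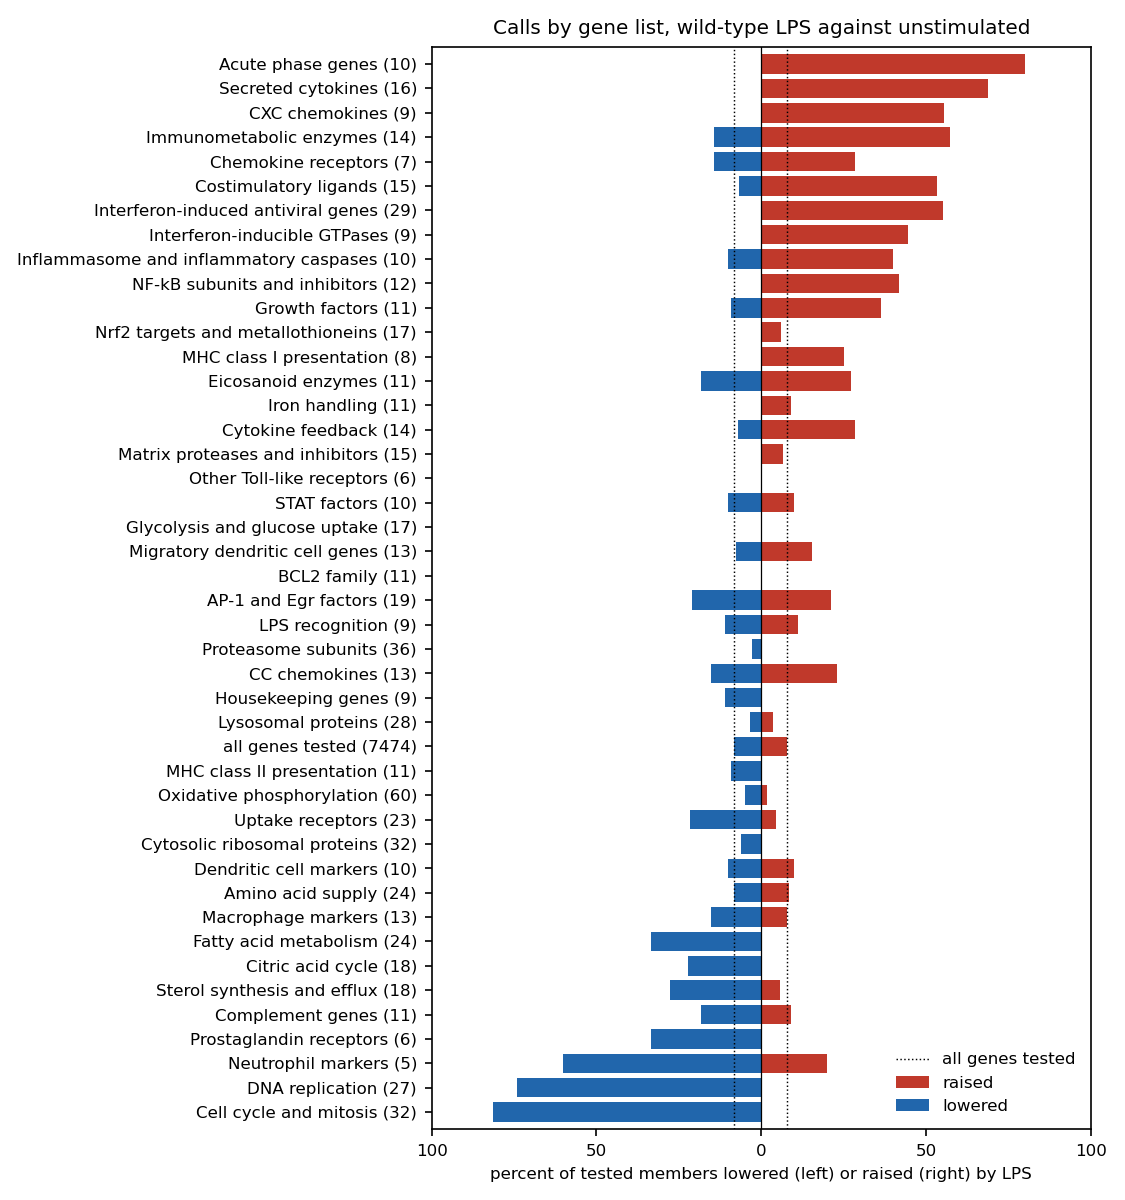
Bars give the percent of tested members of each gene list that were raised (red, right) or lowered (blue, left), with the number tested in brackets and lists ordered by median log2 change; dotted lines mark the shares over all 7474 genes (7.69% raised, 8.24% lowered). Acute phase genes (8 of 10 raised) stand at the top with this filter, though not with no filter, and cell cycle genes (26 of 32 lowered) at the bottom.

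Some genes of the NF-kB pathway rose. Of 12 NF-kB subunits and inhibitors, 5 rose and 0 fell (median 0.93). Each of the 12 was higher at both times, where 2980 of the 7474 genes tested were. With no filter 1 rose, and without either LPS array 0 passed by limma. Nfkbiz, a nuclear member of the inhibitor family, read 2531 and 3158, against 462 (6.11-fold). Nfkbib rose 4.02-fold, Nfkbia 1.51-fold and Tnip1, a partner of the inhibitor A20, 2.92-fold. Rel, the c-Rel subunit, was the sole transcription factor subunit called (3.83-fold). Rela read 1907 and 2589, against 1238, and Relb read 1205 and 1314, against 1008, and neither passed.

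Feedback genes rose in part. Of 14 genes that restrain cytokine signals, 4 rose and 1 fell. Il18bp, a decoy for interleukin 18, read 1356 and 710.5, against 123 (7.99-fold), and Zc3h12a, a nuclease that degrades cytokine mRNA, rose 6.13-fold. Socs3, an inhibitor of STAT3 signalling, rose 3.37-fold and the TNF receptor gene Tnfrsf1b 3.56-fold. Il1rn, the interleukin 1 receptor antagonist, read 10120 and 7092, against 4981, and did not pass. Among 10 genes of the JAK and STAT families, Stat4, which carries the interleukin 12 signal, rose 4.48-fold and the kinase Tyk2 fell 2.36-fold. No other member of these families was called, where 7.69% of all genes tested rose and 8.24% fell.

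Of 9 genes of LPS recognition tested, 1 rose and 1 fell, where 7.69% and 8.24% of all genes tested did. Cd14 rose (10.6-fold, 15600 and 16190, against 1499) and Myd88 fell (2.15-fold, 717 and 1257, against 2038). Tlr4 read 933 and 1320, against 913, and Ly96 read 1175 and 1246, against 590.3, and neither passed. Of 6 other Toll-like receptor genes, 0 passed by limma (0 at an unadjusted p under 0.05). Tlr2, the receptor of lipoproteins, read 2177 and 4101, against 2287.

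Genes of the interferon response were higher under LPS at these late times. Of 29 interferon-induced antiviral genes, 16 rose and 0 fell (median 1.28). At both times 27 were higher, where 2980 of the 7474 genes tested were, and 15 were 2-fold higher, where 8.13% were. With no filter 8 rose, and 3 or 7 rose without the 48 h or the 60 h array. Mx2, an antiviral GTPase, read 734 and 341 under LPS, against 9.22, under the floor, and was at least 37.3-fold higher. Irf7, which amplifies interferon production, read 7682 and 3897, against 490 (11.2-fold, adjusted p = 0.00375). Ifit1 and Ifit3, which bind foreign RNA or its binding proteins, rose 6.1-fold and 6.33-fold. Isg20, an RNA exonuclease, read 2418 and 480.2, against 129.7 (8.31-fold, adjusted p = 0.0498). Rsad2, which encodes viperin, read 12460 and 9159, against 2966, and did not pass (adjusted p = 0.0892), and neither did Ifitm1, at 10560 and 11190, against 10290.

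Of 9 interferon-inducible GTPases, which attack the vacuoles of intracellular microbes, 4 rose and 0 fell (median 1.27). Gbp6 read 2518 and 1932, against 119.6 (18.4-fold). Gbp2 rose 4.41-fold, Gbp3 3.75-fold and Irgm1 2.42-fold. Gbp7 read 2101 and 3043, against 1939, and did not pass.

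Interferon-induced genes are known for the interferon-stimulated response element, whose core was searched as GAAA, a pair of any bases and GAAA, on both strands of the same 300-base windows. It was found in 10 of 22 antiviral genes with a promoter in the table (45.5%) and in 6 of 7 GTPase genes (85.7%), against 3.99% of all 27025 genes. Over all raised genes it was found in 35 of 443 (7.9%), and over lowered genes in 19 of 494 (3.85%), against 4.16% of the tested genes with a promoter in the table. A match is a string of letters in a window and says nothing on binding. The promoters of Ifit3 at chr19:34583279-34583578 and Ifit1 at chr19:34640639-34640938 (both plus strand) are shown because these were the antiviral genes with a match that rose most. Each holds 2 matches, in capitals, read on the opposite strand, starting at -156 and -122 in Ifit3 and at -104 and -85 in Ifit1.
Ifit3: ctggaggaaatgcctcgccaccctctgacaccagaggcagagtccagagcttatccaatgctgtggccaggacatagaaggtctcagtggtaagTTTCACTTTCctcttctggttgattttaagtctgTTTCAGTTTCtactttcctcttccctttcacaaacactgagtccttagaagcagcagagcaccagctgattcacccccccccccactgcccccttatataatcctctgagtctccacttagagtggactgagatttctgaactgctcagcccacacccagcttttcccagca
Ifit1: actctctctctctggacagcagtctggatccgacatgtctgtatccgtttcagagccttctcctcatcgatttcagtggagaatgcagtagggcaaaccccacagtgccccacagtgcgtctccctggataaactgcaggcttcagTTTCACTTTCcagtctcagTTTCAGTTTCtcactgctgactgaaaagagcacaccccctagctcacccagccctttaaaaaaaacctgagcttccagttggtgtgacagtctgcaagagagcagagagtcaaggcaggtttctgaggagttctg

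Of 15 costimulatory ligands, which T cells read beside antigen, 8 rose and 1 fell (median 1.57). Without the 48 h array 0 passed by limma and without the 60 h array 1 rose, while 2 rose with no filter and 4 with the mean of all probe sets. Cd86, the main ligand of CD28, read 6327 and 5488 under LPS, against 1155 (5.1-fold). Cd40, the receptor for T cell help, read 1746 and 1878, against 454 (3.99-fold). Cd70, the ligand of CD27, rose 6.78-fold, and the adhesion receptors Slamf1 and Slamf7 rose 5.34-fold and 3.54-fold. Icosl, the ligand of ICOS, read 45.9 and 72.8, against 259, and was 4.49-fold lower. Icam1, an adhesion molecule, read 2692 and 2522, against 2332, and did not pass.

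Of 11 MHC class II genes, which serve antigen presentation, 1 fell and 0 rose (median -0.17), where 8.24% and 7.69% of all genes tested did. H2-DMa, which helps to load peptides, read 2223 and 1181, against 4536 (2.8-fold lower). The class II chain gene H2-Aa read 12840 and 10030, against 12440, and did not pass. Of 8 class I genes, 2 rose, the peptide transporter Tap1 (2.28-fold) and the peptide editor Tapbpl (2.72-fold), while H2-K1, whose probe sets disagreed and can match related class I genes, read 12890 and 13800, against 13540. Of 36 proteasome subunits, Psmd6 fell 2.31-fold and 35 did not pass.

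Several receptors of antigen uptake fell and others did not pass. Of 23 tested, 1 rose and 5 fell (median -0.25), while 1 fell without the 48 h array and 0 passed by limma without the 60 h array, where the median was 0.004. Mrc1, the mannose receptor, read 39.0 and 42.8 under LPS, against 2608 (63.8-fold lower, adjusted p = 0.0124). The C-type lectin genes Clec4b1, Clec10a and Cd209a fell 27.7-fold, 11.1-fold and 9.48-fold, the last with 1 LPS array at the floor. Axl, a receptor for dying cells, fell 3.67-fold. Clec4e, which encodes Mincle, a receptor of mycobacterial glycolipids, read 13690 and 12890, against 2758 (4.82-fold). Clec7a, the receptor of fungal beta-glucan, read 11500 and 10120, against 12790, and did not pass.

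Complement genes moved both ways, though 0 of 14 passed by limma with no filter. Of 11 tested, Cfb, factor B of the alternative pathway, rose 21.7-fold (3926 and 1617, against 116). C1qa, a chain of the first component, read 408 and 142, against 2879 (12.0-fold lower), and the receptor gene C5ar1 fell 3.49-fold. C1qb and C1qc were lower on both LPS arrays and did not pass, at 661 and 232, against 6032, for C1qb. Of 13 macrophage markers above background, 1 rose, 2 fell (Mrc1 and C1qa), 5 were 2-fold lower at both times and 9 were lower at both times (median -0.62). Over all 7474 genes tested, 9.74% were 2-fold lower at both times and 3145 genes were lower at both times. Adgre1, which encodes F4/80, rose 3.02-fold and Csf1r read 10100 and 9420, against 10460. The part of a change in macrophage-like cells, whose summed markers are given above, was not tested.

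Genes of cell division had the lowest median of the 49 lists. Of 32 genes of the cell cycle and mitosis, 26 fell and 0 rose (median -3.04). At both times 26 were 2-fold lower, where 9.74% of all genes tested were. Without the 48 h or the 60 h array 13 or 16 fell. Ube2c, the ubiquitin carrier of the anaphase-promoting complex, read 5.66 and 8.87 under LPS, both under the floor, against 1312, and was at least 98.0-fold lower. Ccna2, the cyclin of S and G2 phase, read 24.1 and 26.6, against 941 (37.2-fold, log2 -5.22 ± 0.30, adjusted p = 0.0011). Ccnb2, a mitotic cyclin, read 12.9 and 32.9, against 504 (24.0-fold, with 1 LPS array at the floor). Bub1, a checkpoint kinase, fell 20.6-fold, Kif11, a spindle motor, at least 19.3-fold, and Ccnd1, the cyclin of growth factor signals, 19.1-fold. Cdkn1a, which encodes the inhibitor p21, read 4851 and 5230, against 5963, and Cdkn1b, which encodes p27, read 1406 and 548, against 612. Neither inhibitor passed.

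Of 27 genes of DNA replication, 20 fell and 0 rose (median -2.20). Each of the 27 was lower at both times, where 3145 of the 7474 genes tested were. At both times 22 were 2-fold lower, where 9.74% of all genes tested were. With no filter 6 of 29 fell, and without the 48 h or the 60 h array 2 or 7 fell. Rrm2, the regulated subunit of ribonucleotide reductase, read 41.0 and 44.2, against 2591 (60.8-fold, adjusted p = 0.00125). Tk1, a thymidine kinase, was under the floor on both LPS arrays and at least 20.6-fold lower. Mcm5, part of the replicative helicase, fell 20.5-fold and Uhrf1, which maintains DNA methylation, 15.2-fold. Pcna, the polymerase clamp, read 6213 and 5562, against 8693, and did not pass (adjusted p = 0.154). Of 4 histone genes above background, 3 fell, among them the linker histone H1f2 (2.8-fold).

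Promoters of mitotic genes are known for the CHR element bound by DREAM and MuvB complexes and for CCAAT boxes bound by NF-Y, and those of replication genes for E2F sites. Of 25 cell cycle genes with a promoter in the table, 13 held TTTGAA (52.0%), against 20.2% of all 27025 genes, and 19 held CCAAT (76.0%), against 41.1%. The E2F string GGCGGGAA was held by 6 of 26 replication genes (23.1%), against 2.52%, and by 32 of 494 lowered genes (6.48%) and 12 of 443 raised genes (2.71%), against 302 of the 6161 tested genes with a promoter in the table (4.9%). Each was searched on both strands, and matches of different strings may overlap. Ube2c, at chr2:164769679-164769978 (plus strand), and Ccnb2, at chr9:70421505-70421804 (minus strand), were the cell cycle genes holding both strings that fell most, and CHR and CCAAT matches are in capitals. Ube2c has a CHR match on the opposite strand at -29 and 6 CCAAT matches, and Ccnb2 has CHR matches at -167 and 5 and CCAAT matches at -87, -54 and -21.
Ube2c: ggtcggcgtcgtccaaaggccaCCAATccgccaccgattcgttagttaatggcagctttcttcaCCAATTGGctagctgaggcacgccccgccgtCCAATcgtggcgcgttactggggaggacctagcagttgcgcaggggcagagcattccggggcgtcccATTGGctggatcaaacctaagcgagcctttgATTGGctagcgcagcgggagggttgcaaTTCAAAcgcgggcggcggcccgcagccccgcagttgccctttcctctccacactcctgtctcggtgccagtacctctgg
Ccnb2: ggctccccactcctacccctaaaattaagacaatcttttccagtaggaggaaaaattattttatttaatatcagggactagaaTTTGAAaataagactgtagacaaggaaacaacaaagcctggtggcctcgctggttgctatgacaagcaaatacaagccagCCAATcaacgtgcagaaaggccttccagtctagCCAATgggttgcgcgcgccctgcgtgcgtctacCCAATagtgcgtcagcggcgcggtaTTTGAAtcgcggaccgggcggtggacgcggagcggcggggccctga
Uhrf1, at chr17:56303087-56303386, and Rrm1, the large subunit gene of ribonucleotide reductase, at chr7:102441445-102441744 (both plus strand), were the replication genes with an E2F match that fell most (15.2-fold and 8.28-fold). Each has 1 match on the opposite strand, at -48 in Uhrf1 and at -67 in Rrm1, in capitals.
Uhrf1: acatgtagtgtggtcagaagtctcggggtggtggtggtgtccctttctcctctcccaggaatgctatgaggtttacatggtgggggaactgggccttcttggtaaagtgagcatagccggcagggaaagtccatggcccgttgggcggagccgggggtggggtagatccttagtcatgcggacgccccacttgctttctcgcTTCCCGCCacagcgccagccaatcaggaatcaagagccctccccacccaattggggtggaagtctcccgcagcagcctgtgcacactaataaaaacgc
Rrm1: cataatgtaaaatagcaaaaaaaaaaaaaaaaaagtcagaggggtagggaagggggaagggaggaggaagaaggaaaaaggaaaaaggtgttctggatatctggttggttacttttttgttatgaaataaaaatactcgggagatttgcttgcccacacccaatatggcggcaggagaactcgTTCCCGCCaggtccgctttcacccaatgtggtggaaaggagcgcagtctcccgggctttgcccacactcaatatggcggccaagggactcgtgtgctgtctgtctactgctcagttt

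Genes of lipid synthesis were among those lowered. Of 24 genes of fatty acid metabolism, 8 fell and 0 rose (median -0.69), and 4 fell without either LPS array. Fabp4, a fatty acid carrier, read 282 and 461 under LPS, against 4382 (12.2-fold lower). Fasn, the fatty acid synthase, read 122 and 152, against 961 (7.05-fold lower). The desaturase genes Scd1, Scd2 and Fads2 fell 6.45-fold, 5.7-fold and 8.28-fold. Fabp5 and Plin2, of fatty acid transport and storage, did not pass, with Plin2 at 6646 and 8858, against 7622.

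Of 18 genes of sterol synthesis and efflux, 5 fell and 1 rose (median -0.90), while 2 of 19 fell and 1 rose with no filter. The median was -0.80 without the 48 h array and -0.95 without the 60 h array. Fdps, which makes farnesyl diphosphate, read 436 and 252, against 1907 (5.75-fold lower). Cyp51 and Hmgcs1, enzymes of the same pathway, fell 4.11-fold and 2.45-fold. Of the sterol exporters, Abca1 rose 3.11-fold (5434 and 6975, against 1981) and Abcg1 fell 1.92-fold (2062 and 1662, against 3560). The fifth gene that fell was Ch25h, described above.

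Some genes of the citric acid cycle list were lowered. Of 18 tested, 4 fell and 0 rose (median -0.69), while 1 fell with no filter. The median was -0.70 without the 48 h array and -0.62 without the 60 h array. Fh1, fumarase, read 654 and 688, against 2686 (4-fold lower), and the isocitrate dehydrogenase genes Idh1, Idh2 and Idh3a fell 3.97-fold, 2.57-fold and 2.55-fold. Idh1 encodes the cytosolic enzyme, which is not part of the mitochondrial cycle. Mdh2, malate dehydrogenase, read 4973 and 5441, against 4730, and did not pass. Acod1, which turns a cycle intermediate into itaconate and belongs to the immunometabolic list, read 7800 and 7094, against 1659 (4.48-fold higher). It is named outside the rule for named genes, after its values were seen.

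Of 60 subunits of oxidative phosphorylation, 3 fell, 1 rose and 56 did not pass (median -0.20). Over all genes tested 8.24% fell and 7.69% rose. The complex I genes Ndufs8 and Ndufb7 fell 2.32-fold and 2.16-fold, and Ndufa2 of the same complex rose 1.74-fold. Of 17 genes of glycolysis and glucose uptake, 0 passed by limma (6 at an unadjusted p under 0.05, median 0.32). At both times 3 were 2-fold higher, where 8.13% of all genes tested were. Ldha, lactate dehydrogenase, read 13210 and 10690, against 8986, and Tpi1, triosephosphate isomerase, read 11820 and 8729, against 5321. Of 32 ribosomal protein genes, 2 fell and 0 rose. At both times 28 were lower by small amounts (median -0.27), where 3145 of the 7474 genes tested were lower. Rplp0 read 14280 and 14080, against 14510, while the called genes were Rps6 and Rpl14, with Rps6 at 255 and 267, against 858.

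**Figure D4:**
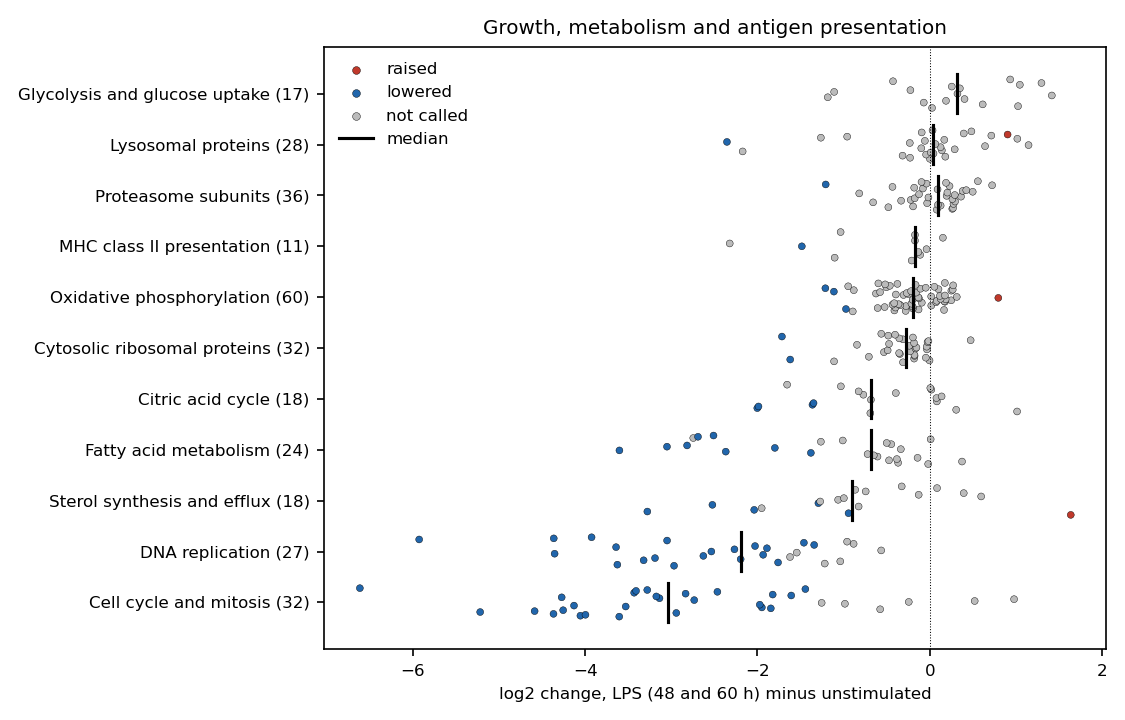
Each point is 1 gene of a list, with its log2 change (mean of 48 and 60 h of LPS minus unstimulated) on the x axis; red and blue points were called raised and lowered, grey ones were not, and black bars are medians over the number of genes in brackets. Proteasome, lysosome and respiratory chain genes gather near 0, while replication and cell cycle genes reach medians of -2.20 and -3.04.

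Of 28 lysosomal genes, 1 rose and 1 fell (median 0.04, or -0.04 without scaling), where 7.69% and 8.24% of all genes tested did. Gusb, beta-glucuronidase, fell 5.11-fold and Neu1, a sialidase, rose 1.87-fold. Of 24 genes of amino acid supply, 2 rose and 2 fell, close to these shares of all genes tested. Slc7a11, the cystine carrier, read 3958 and 3128, against 333 (10.6-fold higher), and Trib3, a stress-induced pseudokinase, rose 3.16-fold. Psat1, of serine synthesis, fell 3.77-fold and the isoleucine tRNA synthetase gene Iars 3.14-fold. Among 17 Nrf2 target and metallothionein genes, Sod2, the mitochondrial superoxide dismutase, rose 2.83-fold and 16 did not pass.

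Immediate early factors moved both ways. Of 19 AP-1 and Egr genes, 4 rose and 4 fell (median 0.14), while 2 of 21 rose and 0 fell with no filter. The median was -0.11 without the 48 h array and 0.465 without the 60 h array. Egr1 read 333 and 1102 under LPS, against 6198 (10.2-fold lower), and Egr2 read 237 and 446, against 3459 (10.6-fold lower). Klf2, a factor of cell quiescence, fell 4.37-fold and Ier2 4.78-fold. Fosl2, an AP-1 subunit, and the orphan receptor Nr4a2 rose 5.71-fold and 8.91-fold. Fos itself read 3276 and 3273, against 4499, and did not pass.

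Of 10 inflammasome genes, 4 rose and 1 fell. Nlrp3, the sensor, read 1378 and 2568, against 602 (3.12-fold), and Casp4, the caspase that binds intracellular LPS in mouse cells, rose 7.92-fold. Pycard, the adaptor ASC, read 1663 and 2348, against 6488, and was 3.28-fold lower. Of 11 BCL2 family genes, 0 passed by limma (1 at an unadjusted p under 0.05), and Mcl1, a survival member, read 7478 and 7478, against 6524. Of 15 matrix proteases and inhibitors, Timp1, an inhibitor, rose 4.53-fold, and Mmp12, the macrophage elastase, read 14840 and 14230, against 14800.

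Of 9 housekeeping genes, 1 fell (Gusb), where 8.24% of all genes tested did, and the median was 0.05, or -0.02 without scaling.

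The LPS arrays at 60 and 48 h were compared without a test, since each time has 1 array. At 60 h 362 genes (4.84%) were at least 2-fold higher than at 48 h and 129 (1.73%) at least 2-fold lower, with a median log2 difference of 0.09. Dusp6, a phosphatase that shuts off ERK, read 2080 at 60 h, against 373 at 48 h and 1028 unstimulated (5.58-fold). Ogt, which attaches N-acetylglucosamine to proteins, was 5-fold higher at 60 h, Sox4, a transcription factor, 4.98-fold, and Vcam1, an adhesion receptor, 4.63-fold. Isg20 was 5.03-fold lower at 60 h, H2-DMb2, of class II loading, 4.37-fold, Itgam, which encodes CD11b, 3.86-fold and Mgl2, a lectin, 3.93-fold.

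Lists differed in this shift. The 24 genes of amino acid supply had a median of 0.44 at 60 over 48 h, with the glutathione-degrading enzyme gene Chac1 at 120 at 60 h, against 26.6 at 48 h. The 29 antiviral genes had a median of -0.36, MHC class II genes -0.38, macrophage markers -0.46 and complement genes -0.98. The 60 h array also had the lower 18S signal and integrity number and the higher 3′ to 5′ ratio of Actb given above, and their part in this shift was not tested.

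**Figure D5:**
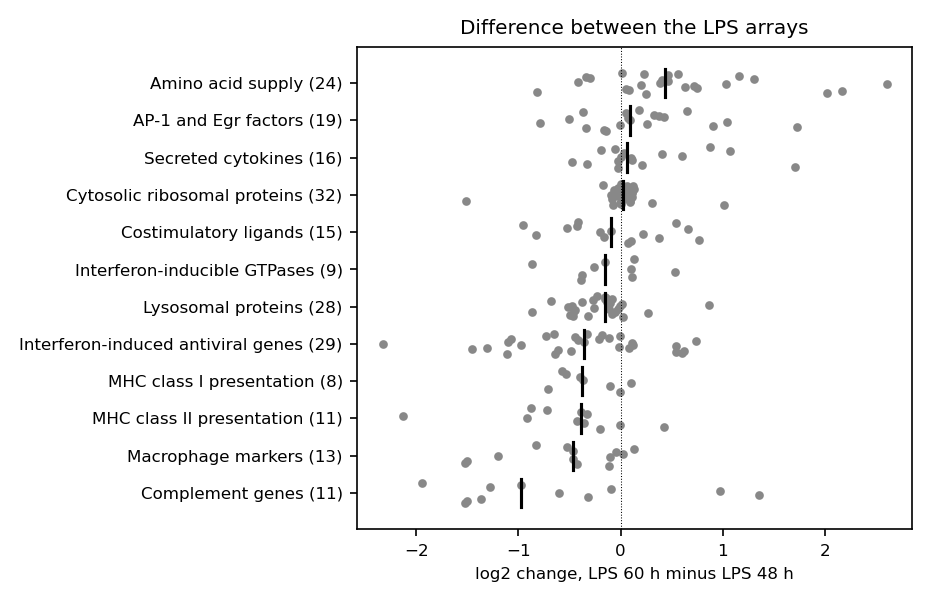
Each point is 1 gene, with its log2 difference between the LPS arrays (60 h minus 48 h) on the x axis; black bars are medians over the number of genes in brackets, and each array is a single sample. Complement genes have the lowest median (-0.98) of these 12 lists and amino acid supply the highest (0.44).

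The response was also set against that of CD14-deficient cells. In limma's test of the difference between the LPS responses of wild-type and CD14-deficient cells, 0 of 7474 genes passed and 613 had an unadjusted p under 0.05. The count was 17 when LPS-treated CD14-deficient cells of 48 h were left out and 1367 when those of 60 h were, so no gene is described here as particular to wild-type cells.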

How the data were processed

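RNA of 10 cultures was measured on 10 Affymetrix arrays, 1 for each condition. The deposited values are linear signal intensities that the authors made with MAS5, per the submitters' processing notes, with 1 value for each of 22690 probe sets. Neither the version nor the target of their scaling is stated by the labels or files. The depth of an array is not a count, and the number of arrays is among the limits on the precision.

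Each array was scaled to the mean 2% trimmed mean (509.1, from deposited values of 443.8 to 553.3). Signals were floored at the pooled 25th percentile (13.4) and put on the log2 scale. Of the probe sets, 20380 had 1 gene symbol, 691 had several and 1619 had none, and those with several or none and 64 control probe sets were not used. The probe set with the highest mean stood for a gene, and a gene was tested when 2 or more of the 10 arrays exceeded the pooled median (99.2). Names came from the platform annotation, and 20351 probe sets matched RefSeq by gene ID.

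limma 3.58.1 in R 4.3.3 was fitted to all 10 arrays with 6 levels of genotype and treatment and a term for 60 against 48 h, with an intensity trend. It left 3 residual degrees of freedom. The contrast was the mean of the LPS arrays at 48 and 60 h minus the unstimulated array, two-sided, adjusted over 7474 genes by the Benjamini-Hochberg method. The lone unstimulated array is assumed to vary like the others, and the p-values do not cover the spread between mice or cultures. The script was tested on simulated data.

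Members and the 49 gene lists were chosen with earlier results of these data known. The rule for named genes took the 15 largest rises and falls among called genes 2-fold apart at both times. It took up to 6 called and 4 uncalled members of each list, and the 8 largest differences between 60 and 48 h in each direction. List members whose sign differed between the times and the cell type markers were taken too. Not every gene taken is printed, and of the list members whose sign differed only Dusp6 is. The rule also took the 10 highest signals of each array, which are not ranked here because probe sets cannot be compared. Printed promoters were the called members with a match that changed most, up to 2 a list. The alternatives were other scaling, floors, filters, probe set rules, fits and left-out arrays.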

Additional observations from a re-analysis of the deposited data

How the results depend on the processing

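Among the limits are few arrays and no replicates. The counts of raised and lowered genes ranged from 100 to 1571 and from 70 to 1709 when single arrays other than the wild-type unstimulated one, which has no replacement, were left out. They were 1253 and 1451 with the 5 wild-type arrays, 252 and 243 with 3 wild-type arrays, and 1568 and 1705 without both CD14-deficient LPS arrays. The strict filter, which tests fewer genes, gave 354 genes lowered by LPS in wild type. It gave 405 genes 2-fold higher at both times and 359 genes 2-fold lower at both times, with 134 genes 2-fold higher at 60 than at 48 h and 68 genes 2-fold lower at 60 than at 48 h. A pseudocount of 32 in place of the floor gave 213 and 84 for 60 against 48 h, and no filter, which tests more genes, 569 and 282. Genes that differed between genotypes numbered 192 with no filter, 1 with no floor and 0 to 1367 when single arrays were left out. The cause of the other shifts was not tested. The fits on wild-type arrays alone, and the one without both CD14-deficient LPS arrays, allow no test of the genotype difference. Scaling and normalization kept the counts of called genes within 1.5 times those reported. With no filter 385 genes were raised and 450 lowered, of which 304 and 266 were among the calls reported.

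Among the named genes that were checked, no called gene changed direction under any alternative run. For Rala, Sh3glb1 and Fnbp1, described below, probe sets of the same gene differed in direction. Of the log2 changes of named genes over all alternatives, 3727 kept direction and call, 602 kept direction and lost the call, 103 gained it and 23 turned. Without scaling Lyz2 was -0.052 and Plin2 -0.065, and with quantile normalization H2-K1 was 0.03 and Mmp12 0.012. With the mean of all probe sets H2-K1 was 1.23, Mcl1 -0.002 and Mdh2 -0.033. With single arrays left out, 16 named genes, none of them called, had changes of both signs. The lowest and highest log2 changes were -0.11 and 0.27 for Ccl22, -0.25 and 0.16 for Ccl9, -0.012 and 0.97 for Ccr7, and -0.25 and 1.30 for Cdkn1b. They were -0.42 and 1.48 for Chac1, -0.31 and 0.11 for Csf1r, -0.89 and 0.44 for Dusp6, and -0.34 and 0.12 for Fscn1. They were -0.18 and 0.13 for H2-K1, -0.07 and 0.23 for Ifitm1, -0.21 and 0.16 for Mmp12, and -1.41 and 0.39 for Ogt. They were -0.11 and 0.75 for Relb, -0.08 and 0.015 for Rplp0, -0.12 and 1.05 for Sox4, and -0.1 and 0.032 for Tgfb1. The list counts without single LPS arrays or with other filters and probe sets, and the list medians under other scaling, were added after seeing the data. No paired analysis was possible because each condition has 1 array and the replicate numbers name only the times.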

Other observations

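Some genes were read by several probe sets, which share the same RNA and the same unstimulated array, so they bear on the probes and not on the cultures. Raised genes had 347 further probe sets above background, of which 255 (73.5%) were higher at both times, against 729 of 1296 (56.2%) for uncalled genes higher at both times. Lowered genes had 319, of which 301 (94.4%) were lower at both times, against 1040 of 1472 (70.7%) for uncalled genes lower at both times. The examples that follow were chosen after their values were seen. Ptgs2 had a second probe set at 10090 and 8321 under LPS, against 17.4 without it (log2 change 9.04, where the probe set used gave 6.54). Cd86 had a second probe set at 1396 and 1545, against 929 (log2 change 0.66, against 2.35 for the probe set used).

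Some genes had probe sets of opposite direction. Rala, a small GTPase, read 3515 and 3121 under LPS, against 1341, on the probe set used, and 58.6 and 82.9, against 268.5, on another. Sh3glb1, a membrane-shaping protein, read 10210 and 8690, against 5173, on the probe set used, and 92.8 and 176.6, against 663.7, on another. Fnbp1, a formin-binding protein, was lowered on the probe set used (212 and 257, against 1055) and higher on another (184 and 172, against 44.3). For these 3 genes the direction depends on the probe set, and the transcripts each one reads were not examined.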
